A study of Mus musculus with 6 samples.

Results

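The genes described here are 10 members of the microtubule system of mouse skeletal muscle: the alpha-tubulin genes Tuba4a and Tuba8, the beta-tubulin genes Tubb2a, Tubb2b, Tubb4b, Tubb5 and Tubb6, the microtubule-associated protein gene Map4, and the tubulin-modifying enzyme genes Ttll1 and Ttll7. They were chosen because Ttll7 was lower in the transgenic muscle with a very small p (rank 4 of 16593 genes tested), together with the tubulin isotypes, Map4 and Ttll1 as its relatives. All 10 were among the 51911 genes of the deposited count table and all 10 passed the filter on low counts. Since the genotype contrast itself chose them, its values, and how many members lay past the threshold used for all genes, are given as a description, with no p-value for any member.

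RNA was measured by bulk sequencing in gastrocnemius, a calf muscle, of male mice of 2 genotypes, each with 3 libraries. The transgenic group (HSA-PGC-1a3, genotype label alpha3_tg) overexpresses PGC-1alpha3, an isoform of the metabolic coactivator PGC-1alpha, from the HSA promoter, which by its usual meaning is the human skeletal actin promoter and is active in muscle fibres; the other group was wild-type. The labels used here give no age, strain, time or treatment and do not say how many animals stand behind a library, so p-values reflect library-to-library spread alone, which may be technical. The question of the comparison was how the transcriptome of muscle carrying the transgene differs from that of wild-type muscle.

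Microtubules are hollow polymers of paired alpha- and beta-tubulin. In muscle fibres they form a lattice beneath the membrane and around the nuclei that positions organelles and carries cargo. Cells vary this lattice through the isotypes they express and through enzymes that modify tubulin, above all at its glutamate-rich tail, where tubulin tyrosine ligase-like (TTLL) enzymes add chains of glutamate or glycine. TTLL7 is a polyglutamylase that prefers beta-tubulin tails, TTLL1 is the catalytic subunit of a polyglutamylase complex known for modifying alpha-tubulin, and MAP4 is the main non-neuronal structural microtubule-associated protein, with a long form typical of muscle.

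The tails that these enzymes act on are the place where the tubulin isotypes differ most, so the last 60 coding bases (20 codons before the stop) of 6 members are shown, 5′ to 3′ on the coding strand, with glutamate codons in capitals. They come from GENCODE transcripts (release M21, GRCm38), each from a single exon: Tuba4a chr1:75215625-75215684 (minus strand), Tuba8 chr6:121226017-121226076 (plus), Tubb4b chr2:25222311-25222370 (minus), Tubb5 chr17:35834985-35835044 (minus), Tubb2a chr13:34074471-34074530 (minus) and Tubb2b chr13:34127474-34127533 (minus).
Tuba4a: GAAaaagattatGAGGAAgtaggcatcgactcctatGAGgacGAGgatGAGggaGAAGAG
Tuba8: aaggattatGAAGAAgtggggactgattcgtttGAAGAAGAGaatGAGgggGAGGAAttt
Tubb4b: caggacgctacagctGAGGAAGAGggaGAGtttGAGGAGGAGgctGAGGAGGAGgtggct
Tubb5: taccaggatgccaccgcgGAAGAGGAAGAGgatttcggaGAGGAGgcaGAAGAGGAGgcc
Tubb2a: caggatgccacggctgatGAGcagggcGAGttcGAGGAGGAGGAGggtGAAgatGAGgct
Tubb2b: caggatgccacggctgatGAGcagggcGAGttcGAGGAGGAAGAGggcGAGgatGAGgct
Tubb4b had the most glutamate codons in this stretch, 10 of 20, followed by Tubb5 with 9. Tuba4a, Tuba8, Tubb2a and Tubb2b each had 8. The last codon was glutamate in Tuba4a and phenylalanine in Tuba8, so neither of these alpha isotypes encodes a terminal tyrosine. The 4 beta tails shown end in an alanine codon. Over the whole coding sequence Tubb2a and Tubb2b were 96.5% identical, while the other beta pairs were 80.2% to 84.6% identical and Tuba4a and Tuba8 81.1%.

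Total counts ran from 25532146 to 40846872 per library. Levels are given as CPM, counts scaled to a common library size with TMM factors (trimmed mean of M-values, which corrects for composition), and 3 counts equal 0.0804 to 0.134 CPM. Ppargc1a, the gene from which the transgene derives, stood at 3100, 2450 and 3240 CPM in the transgenic and 51.1, 52.1 and 53.5 CPM in the wild-type libraries, so every library matched its label; counts per gene do not separate transgene from endogenous RNA. Mean TMM factors were 1.15 (transgenic) and 0.872 (wild-type), and scaling by library totals alone shifted the all-gene median log2 fold change from -0.016 to 0.38, by 0.396. All 5 myofibre markers were detected, with a summed level of 137000 to 146000 CPM in wild-type and 61500 to 67100 CPM in transgenic libraries, and all 5 passed the test as lower (4 of 5 with library totals alone). In bulk tissue, fewer cells of a type and less RNA per cell cannot be told apart.

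Among the 16593 genes tested, 50.7% passed at an adjusted p under 0.05 (edgeR quasi-likelihood test, Benjamini-Hochberg), 25.5% as higher and 25.2% as lower in the transgenic muscle, and 59.6% did not overlap in CPM between genotypes. Of the 10 members, 8 lay past that threshold, with 2 higher (Ttll1 and Tubb5) and 6 lower (Ttll7, Tuba8, Tubb4b, Map4, Tubb6 and Tuba4a), and the same 8 did not overlap; with library totals alone 5 lay past it, 2 higher and 3 lower (Ttll7, Tuba8 and Tubb4b). These counts describe the members and support nothing, because the members were chosen on this contrast. The median log2 fold change of the 10 was -0.393, against -0.016 over all genes tested (0.004 against 0.38 with library totals alone).

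**Figure D1:**
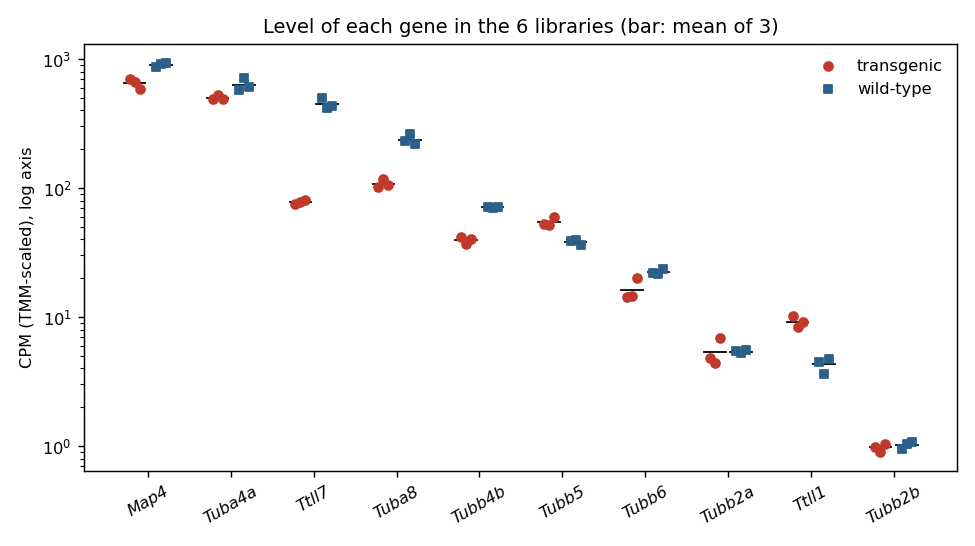
CPM of each gene in the 6 libraries on a log axis, transgenic as red circles and wild-type as blue squares, with a bar at each mean of 3. The Ttll7 points separate most, at 74.7 to 81.4 against 415 to 497 CPM, while those of Tubb2a and Tubb2b overlap.

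Ttll7 (chromosome 3, 146852367 to 146984009, plus strand) carried the widest difference of the group. It stood at 497, 415 and 434 CPM in the wild-type libraries and at 74.7, 78.3 and 81.4 CPM in the transgenic libraries, from raw counts of 11472, 14403 and 9742 against 2272, 2349 and 3038. Every transgenic library lay far below the lowest wild-type library. The fold was 5.74 (log2 fold change -2.52, SE 0.0765), and it ranged from -2.58 to -2.45 over the 6 fits that left out a library. With library totals alone it was -2.13.

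Ttll7 made up most of its enzyme family's RNA in wild-type muscle. Of the summed level per kilobase of exon of 14 genes (Ttl, Ttll1 to Ttll13), Ttll7 made up 80.9%, 78.8% and 79% in wild-type libraries. In transgenic libraries it made up 33.8%, 36.9% and 36.6%. It ranked first of the 14 in both genotypes, so the transgenic muscle kept Ttll7 as its leading family member at a lower level: 9.45 CPM per kilobase on average against 54.3. The gene next in order in transgenic muscle was Ttll12 at 5.05 CPM per kilobase, and in wild-type muscle Ttl, the tubulin tyrosine ligase itself, at 3.52. These shares do not depend on the scaling between libraries. The shares and ranks do depend on the exon length used, and they were not computed with transcript lengths.

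Ttll1 (chromosome 15, 83483769 to 83510893, minus strand) differed in the opposite direction. Its level was 4.46, 3.63 and 4.77 CPM in wild-type and 10.2, 8.43 and 9.08 CPM in transgenic libraries. The groups did not overlap, and the transgenic level was 2.17-fold the wild-type level (log2 fold change 1.12, SE 0.133). By mean level per kilobase Ttll1 moved from rank 6 to rank 3 of the 14 family genes, at 1.47 and 3.17 CPM per kilobase. Rank 3 was close to a tie, with Ttll3 at 3.07 and Ttl at 2.99. Ttl lay above Ttll1 in transgenic library 2 (3 against 2.9), and Ttll3 did in transgenic library 3 (3.22 against 3.12). In transgenic muscle Ttll1 was 11.3% to 13.1% of the family sum, against 1.96% to 2.46% in wild-type muscle. Even so, Ttll7 remained the more abundant of the pair per kilobase in every transgenic library, at 9.04 to 9.85 against 2.9 to 3.5. The share of Ttll1 also depends on Ttll7, whose level was lower within the same sum. Ttl gained share too, from 4.89% to 5.4% in wild-type to 10.8% to 11.7% in transgenic libraries. Its mean level was 3.52 CPM per kilobase in wild-type and 2.99 in transgenic muscle.

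**Figure D2:**
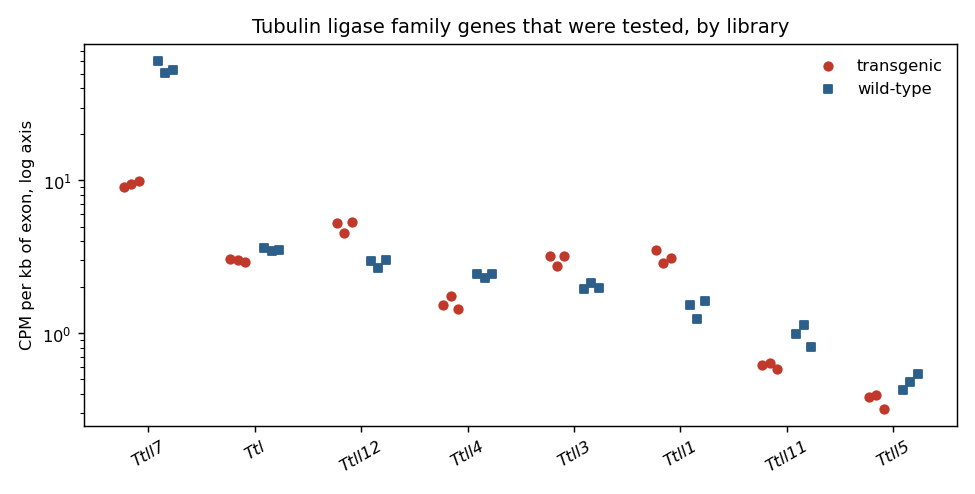
CPM per kilobase of exon, log axis, of the 8 tubulin ligase family genes that passed the filter on low counts, by library (transgenic red circles, wild-type blue squares). Ttll7 stands apart in wild-type muscle at 50.2 to 60.1; in transgenic muscle it lies at 9.04 to 9.85, above Ttll12 at 4.54 to 5.34.

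Among the alpha-tubulins, Tuba4a (chromosome 1, 75214228 to 75219865, minus strand) was the most abundant tubulin gene in either genotype. It stood at 580, 711 and 605 CPM in wild-type and 486, 530 and 494 CPM in transgenic libraries. All transgenic libraries were lower, by a fold of 1.26 (log2 fold change -0.33, SE 0.0813), and the sign turned with library totals alone (0.069). Tuba4a shares 1379 exonic bases with Stk16, a kinase gene on the opposite strand, and fragments there were counted for both; the Stk16 mean was 51.2 CPM in wild-type and 43 CPM in transgenic muscle, far below Tuba4a.

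Tuba8 (chromosome 6, 121210696 to 121226854, plus strand), an alpha isotype known from muscle, heart and testis, was lower by a fold of 2.2. Its level was 231, 261 and 220 CPM in wild-type and 101, 118 and 105 CPM in transgenic libraries. The groups were well apart, and the log2 fold change of -1.13 (SE 0.0795) was -0.74 with library totals alone. Gm15856, an overlapping gene on the other strand that shares 368 exonic bases, averaged 38.9 CPM in wild-type and 17.8 CPM in transgenic muscle, and without strand information the 2 cannot be told apart in those bases.

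The alpha pool differed in composition as well as level. Tuba4a made up 58.6%, 61.1% and 61% of the summed alpha level per kilobase in wild-type libraries and 71%, 70.6% and 70.8% in transgenic libraries. Tuba8 made up 38.2%, 36.7% and 36.3% in wild-type and 24.1%, 25.8% and 24.7% in transgenic libraries. Neither isotype's shares overlapped between genotypes, and the 6 other alpha genes together held only a few percent, the largest being Tuba1a at 1.67% to 2.73%. With lengths from the longest transcript, the mean Tuba8 share was 31.3% in wild-type and 20.4% in transgenic muscle. The alpha sum was 267, 315 and 268 CPM per kilobase in wild-type and 185, 203 and 188 in transgenic libraries, and with library totals alone 236, 267 and 235 against 212, 233 and 216.

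Among the beta-tubulins, Tubb4b and Tubb5, both broadly expressed isotypes, differed in opposite directions. Tubb4b (chromosome 2, 25222160 to 25224702, minus strand) stood at 70.8, 70.6 and 71 CPM in wild-type and 42, 36.8 and 40 CPM in transgenic libraries. The wild-type values were nearly identical, and the transgenic ones were lower by a fold of 1.79 (log2 fold change -0.84, SE 0.061; -0.44 with library totals alone). Tubb5 (chromosome 17, 35833921 to 35838306, minus strand) stood at 38.7, 39.6 and 36 CPM in wild-type and 52.2, 51.6 and 59.3 CPM in transgenic libraries. It was higher in every transgenic library, by a fold of 1.42 (log2 fold change 0.51, SE 0.0704; 0.91 with library totals alone).

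Tubb4b was 56.9%, 57% and 57.1% of the beta level per kilobase in wild-type libraries and 43.6%, 41.1% and 37.6% in transgenic libraries. Tubb5 was 19.5%, 20.1% and 18.2% against 34.1%, 36.1% and 35%. In wild-type muscle Tubb4b stood well above Tubb5 per kilobase (means 33.9 and 11.5 CPM per kilobase). In transgenic muscle the ranges met, at 17.6 to 20.1 for Tubb4b and 15.5 to 17.8 for Tubb5. Within each transgenic library Tubb4b was still the higher of the pair, at 20.1, 17.6 and 19.1 against 15.7, 15.5 and 17.8. The tails encoded by this pair, shown above, both end in alanine and carry 10 and 9 glutamate codons.

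Tubb6 (chromosome 18, 67390717 to 67402749, plus strand), a beta isotype known to rise in regenerating and dystrophic muscle, stood at 22.1, 21.4 and 23.7 CPM in wild-type and 14.3, 14.5 and 20 CPM in transgenic libraries. The groups did not overlap, but the third transgenic library lay close to the wild-type values. Its log2 fold change was -0.46 (SE 0.125), and it lay inside the threshold without transgenic replicate 1 (-0.35) or 2 (-0.36), or with library totals alone (-0.06). Its share of the beta level was 14.8% to 16.3% in wild-type and 12.8% to 16.1% in transgenic muscle, which overlap. Summed markers of regenerating fibres overlapped as well, at 62.8 to 78.6 CPM in wild-type and 67.8 to 83.4 CPM in transgenic libraries. That sum joins opposite differences: Myog and Ncam1 passed as higher (log2 fold changes 1.66 and 0.49) and Myh3 as lower (-0.86). Their relation to Tubb6 was not tested.

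Tubb2a and Tubb2b, neighbours on chromosome 13 (34074274 to 34078007 and 34126748 to 34130466, minus strand), were the scarcest beta members and showed no difference that this design resolved. Tubb2a stood at 5.42, 5.27 and 5.52 CPM in wild-type and 4.83, 4.43 and 6.86 CPM in transgenic libraries, so that the transgenic values spanned the wild-type ones. Its log2 fold change was 0.00 (95% interval -0.356 to 0.356). Tubb2b stood at 0.953, 1.04 and 1.07 CPM against 0.986, 0.9 and 1.04 CPM, with 22 to 39 counts per library, and its log2 fold change was -0.06 (interval -0.599 to 0.479). These intervals leave room for a difference in either direction, and with library totals alone the values were 0.40 for Tubb2a and 0.34 for Tubb2b. Of the 50-base stretches of the Tubb2a transcript, 49.6% also occurred in another gene's transcript, mainly Tubb2b, so the split of reads within this pair is uncertain; with their counts summed the log2 fold change was -0.01.

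Reads of near-identical copies bear on Tubb4b too. Of its 50-base stretches 55.5% were shared, mainly with the pseudogene Tubb4b-ps1, which had 19 counts over all 6 libraries against 9554 for Tubb4b. These counts do not show how fragments that match both were treated. The level and share of Tubb4b beside other isotypes carry that uncertainty. Ttll7, Map4 and Tubb6 shared no such stretch with another gene, and Ttll1 and Tubb5 shared under 1%.

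**Figure D3:**
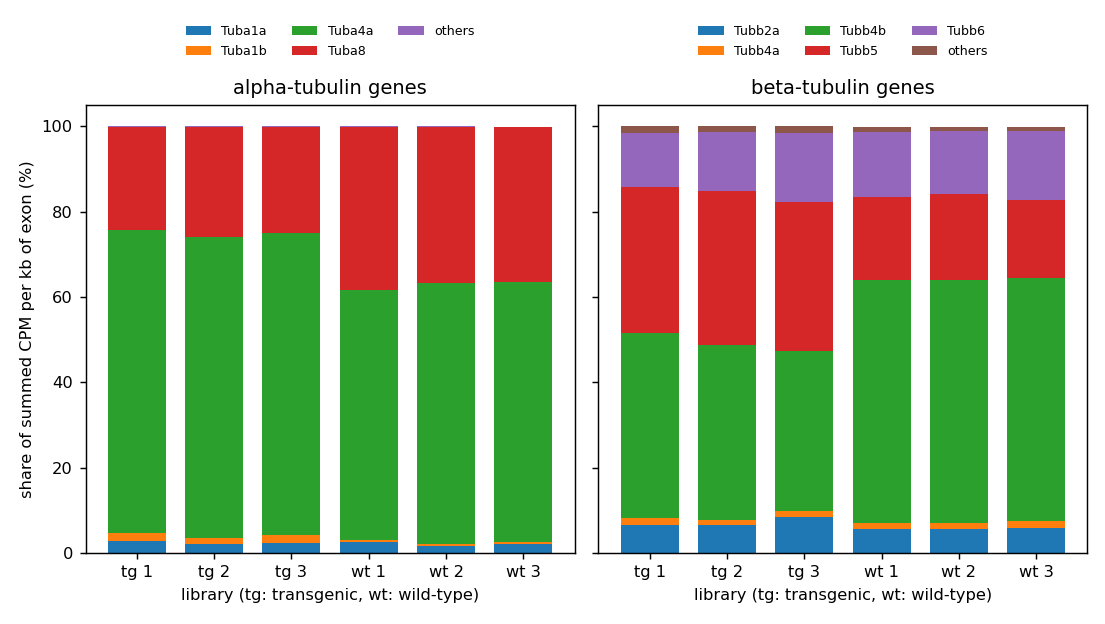
Share of each isotype in the summed CPM per kilobase of exon of the alpha-tubulin genes (left) and the beta-tubulin genes (right), 1 bar per library (tg transgenic, wt wild-type), with genes averaging under 1% pooled as others. Tuba8 is at least 36.3% of the alpha pool in wild-type and at most 25.8% in transgenic libraries, and Tubb5 is at most 20.1% of the beta pool in wild-type and at least 34.1% in transgenic libraries.

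The ratio of the alpha to the beta sum per kilobase overlapped between genotypes, at 4.48, 5.31 and 4.5 in wild-type and 4.02, 4.72 and 3.69 in transgenic libraries. The beta sum was 59.6, 59.3 and 59.6 CPM per kilobase in wild-type and 46, 43 and 50.9 in transgenic libraries, but with library totals alone the values overlapped, at 52.7, 50.4 and 52.3 against 52.7, 49.3 and 58.3. The composition of each pool, unlike its sum, is the same under either scaling.

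Map4 (chromosome 9, 109931460 to 110083955, plus strand) had the most fragments of the 10 genes. It stood at 874, 910 and 925 CPM in wild-type and 703, 663 and 583 CPM in transgenic libraries. No transgenic library reached a wild-type value, and the fold was 1.39 (log2 fold change -0.48, SE 0.0751). With library totals alone the value was -0.08, inside the threshold. Counts per gene do not separate the muscle form of Map4 from the ubiquitous form.

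Ordered by level per kilobase, wild-type muscle ran from Tuba4a (171 CPM per kilobase) through Tuba8 (105), Map4 (59.6), Ttll7 (54.3), Tubb4b (33.9), Tubb5 (11.5), Tubb6 (9.2), Tubb2a (3.36) and Ttll1 (1.47) to Tubb2b (0.444). Only Map4 and Ttll7 overlapped as neighbours in that order, at 57.7 to 61.1 and 50.2 to 60.1 CPM per kilobase. In transgenic muscle Ttll7 (9.04 to 9.85) lay below Tubb5, and 3 pairs of neighbours overlapped in range. They were Tuba8 with Map4 (44.6 to 52.3 and 38.5 to 46.4), Tubb4b with Tubb5, and Ttll1 with Tubb2a (2.9 to 3.5 and 2.75 to 4.26). Library by library, Tubb4b stayed above Tubb5. Map4 exceeded Tuba8 in transgenic library 1 (46.4 against 44.6), and Tubb2a exceeded Ttll1 in transgenic library 3 (4.26 against 3.12). These orders and overlaps depend on the length used, above all for Map4. It has 15143 bases of exon merged over its transcripts, but its transcript with the longest coding sequence has 6091. The orders were not computed with transcript lengths.

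**Figure D4:**
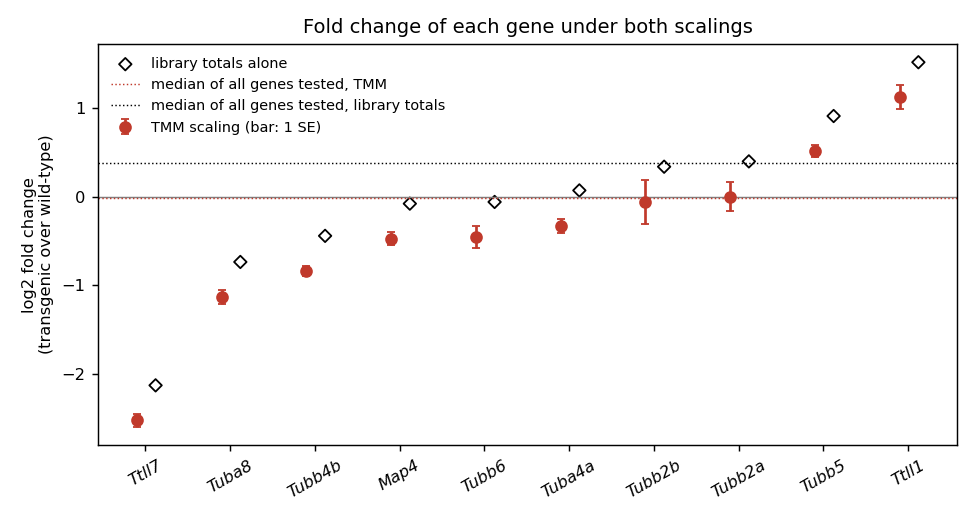
Log2 fold change (transgenic over wild-type) of each gene with TMM scaling (red circles, bar 1 SE) and with library totals alone (open diamonds), with dotted lines at the median of all genes under each. Ttll7, Tuba8, Tubb4b, Map4 and Tubb6 lie below 0 and Tubb5 and Ttll1 above 0 under both scalings, while Tuba4a turns from -0.33 to 0.069 and Tubb2b from -0.06 to 0.34, and Tubb2a moves from 0.00 to 0.40.

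The promoters of 2 members that differed strongly are shown, as the 250 bases before the start in the RefSeq table (GRCm38.p6), which held 7 of the 10 genes. Ttll7 (chr3:146852117-146852366, plus strand) and Tubb4b (chr2:25224703-25224952, minus strand) are written 5′ to 3′, with matches to the motifs searched in capitals.
Ttll7: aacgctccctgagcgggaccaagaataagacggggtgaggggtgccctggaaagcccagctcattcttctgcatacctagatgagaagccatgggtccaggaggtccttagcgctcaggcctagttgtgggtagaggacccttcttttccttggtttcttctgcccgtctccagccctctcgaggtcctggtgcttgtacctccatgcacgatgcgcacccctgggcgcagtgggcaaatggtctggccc
Tubb4b: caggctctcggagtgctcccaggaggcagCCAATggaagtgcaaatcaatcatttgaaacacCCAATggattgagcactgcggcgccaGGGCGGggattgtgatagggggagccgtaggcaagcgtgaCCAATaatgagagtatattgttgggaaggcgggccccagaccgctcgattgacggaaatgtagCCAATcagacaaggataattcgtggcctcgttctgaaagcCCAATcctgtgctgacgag
The motifs were the estrogen-related receptor element TNAAGGTCA, a partner site of PGC-1 coactivators, the E-box CAGCTG of myogenic factors, the MEF2 site, CCAAT and the GC box GGGCGG, all on both strands. Of 32851 promoter windows of this length, 1.14%, 13.0%, 2.92%, 33.8% and 32.7% held them, in that order. The Ttll7 window held none of the 5. Its GC content was 59.2%, against a median of 52.4%. The Tubb4b window held 5 CCAAT matches and 1 GC box, the Tubb5 window 2 CCAAT matches, and the Tuba8 window no match. The estrogen-related receptor element and the MEF2 site occurred in none of the 8 windows of the 7 genes (Map4 has 2). A match or its absence describes these letters only.

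The genes whose profile over the 6 libraries lay nearest to that of Ttll7 were Cdk19, Gm28309, Slc38a4, Golm1 and Aspa, by Euclidean distance between log2 CPM centred on each gene's mean. Cdk19, a kinase of the Mediator complex, lay nearest (distance 0.177) at 98 ± 11.6 CPM in wild-type and 15.8 ± 0.91 CPM in transgenic muscle (SD, n = 3 each). Slc38a4, an amino acid transporter, lay at a distance of 0.231 with 207 ± 23.3 against 39 ± 2.78 CPM. Aspa, which splits N-acetylaspartate, was the farthest of the 5 at 0.327, with 6.89 ± 1.04 against 1.26 ± 0.16 CPM. Golm1 (0.232) stood at 40.8 ± 2.29 against 6.25 ± 0.312 CPM and shares 1297 exonic bases with Naa35. Gm28309 (0.228) stood at 0.801 ± 0.0961 against 0.0709 ± 0.00819 CPM, the latter under the level of 3 counts, so its place in this order depends on the prior count of 2 added before taking logs; it shares 455 exonic bases with Hoxd11. Over 6 libraries in 2 groups, such likeness rests mainly on the genotype difference.

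Around the 10 genes, 8 lists of other microtubule genes were examined, 153 genes of which 135 were tested. Of these, 54 rose and 29 fell, 61.5% of those tested against 50.7% of all genes. The split depended on the scaling: 65.1% of the calls were higher with TMM and 92.4% with library totals alone (all genes: 50.2% and 85.7%). The median log2 fold change of the 135 was 0.114, against -0.016 over all genes tested (0.511 against 0.38 with library totals alone). Values below are log2 fold changes with SE and adjusted p-values over all genes tested (edgeR quasi-likelihood test, Benjamini-Hochberg), with mean CPM ± SD, n = 3 each.

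Of the other tubulin genes, 6 of 11 were tested, 1 rose and 1 fell (3 and 0 with library totals alone), with a median of -0.07. Tuba1b, an alpha isotype of growing cells, rose from 2.8 ± 0.0327 to 6.53 ± 0.691 CPM (1.22, SE 0.134, adjusted p = 2.26e-05). Tuba1a fell with TMM scaling (-0.37, adjusted p = 0.034), turned to 0.02 with library totals alone, and no longer passed without transgenic replicate 2 (-0.28) or 3 (-0.33) or wild-type replicate 1 (-0.25). Both share exonic bases with Gm49450, 426 and 473. Neuronal Tubb3 was not tested, with at most 16 counts in a library.

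Of the other ligases and polyglutamylase partners, 10 of 16 were tested, 4 rose and 5 fell, with a median of -0.01. With library totals alone 5 rose and 0 fell. Ttll12, a divergent family member, rose from 11.6 ± 0.731 to 20.4 ± 1.79 CPM (0.81, SE 0.0905, adjusted p = 2.58e-05). The genes of a pair of non-catalytic subunits of the TTLL1 complex also rose, Tpgs1 (0.53, SE 0.0763, adjusted p = 0.000156) and Nicn1 (0.58, SE 0.0764, adjusted p = 8.78e-05). The other 2 subunit genes of that complex did not rise with TMM scaling: Tpgs2 fell (-0.39, adjusted p = 0.0192; 0.005 with library totals alone), and Lrrc49 did not pass (0.22, adjusted p = 0.273), though it rose with library totals alone (0.62, adjusted p = 0.00608). Ttll4, a polyglutamylase that starts side chains, fell from 27.7 ± 1.16 to 18.2 ± 1.87 CPM (-0.61, adjusted p = 0.000121) but did not pass with library totals alone (-0.21, adjusted p = 0.0546).

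Of the enzymes that remove glutamate or tyrosine from tubulin or control its acetylation, 10 of 12 were tested. Of these, 6 rose and 0 fell, 60% against 50.7% of all genes, with a median of 0.36 (9 rose with library totals alone). Hdac6, the tubulin deacetylase, rose from 8.86 ± 1.05 to 17.5 ± 1.33 CPM (0.99, SE 0.102, adjusted p = 1.52e-05). Atat1, the acetyltransferase that acts against it, rose from 4.12 ± 0.581 to 9.5 ± 0.609 CPM (1.20, adjusted p = 1.82e-05), and shares 644 exonic bases with Gm16279. Agtpbp1, a deglutamylase that trims the chains TTLL enzymes add, rose from 85.6 ± 2.6 to 115 ± 11.4 CPM (0.42, SE 0.0717, adjusted p = 0.000542). Sirt2, a further tubulin deacetylase, rose by 0.21 (adjusted p = 0.0099), and this call was lost without wild-type replicate 3 (0.18).

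All 21 genes of tubulin folding (the CCT chaperonin, prefoldin and tubulin cofactors) were tested. Of these, 14 rose and 0 fell, 66.7% against 50.7% of all genes, with a median of 0.24. With library totals alone 21 rose, a scaling under which 8676 of all 16593 genes tested rose. The chaperonin subunit genes Cct8 (0.69, SE 0.0552, adjusted p = 2.27e-06), Tcp1 (0.53, adjusted p = 1.53e-05) and Cct7 (0.51, adjusted p = 1.73e-05) rose from 131, 191 and 119 CPM to 211, 276 and 170 CPM on average. They share 192, 571 and 214 exonic bases with Usp16, Acat3 and Pradc1. Tbcel, a cofactor-like gene that destabilises tubulin, rose by 0.75 (adjusted p = 2.37e-06). The chaperonin also folds actin and other proteins.

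Of the microtubule-associated protein genes other than Map4, 29 of 30 were tested, 10 rose and 7 fell, with a median of -0.04 (18 and 3 with library totals alone). Map1b rose from 21.2 ± 1.44 to 49.1 ± 2.21 CPM (1.21, SE 0.0702, adjusted p = 2.46e-07). Mark1, a kinase that detaches such proteins from microtubules, MAP4 among them, rose from 6.27 ± 0.56 to 17.7 ± 0.615 CPM (1.49, SE 0.0924, adjusted p = 3.73e-07). Map7d1, a kinesin-recruiting protein gene, fell from 450 ± 34 to 216 ± 13.8 CPM (-1.06, SE 0.073, adjusted p = 8.25e-07). Clip1, a plus-end tracking protein gene, fell from 491 ± 2.61 to 286 ± 7.04 CPM (-0.78, SE 0.0547, adjusted p = 9.15e-07).

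Of the severing and destabilising genes, 10 of 13 were tested, 2 rose and 3 fell, with a median of -0.04 (5 and 1 with library totals alone). The katanin-like Katnal2 fell from 1.2 ± 0.506 to 0.226 ± 0.0654 CPM (-2.38, SE 0.41, adjusted p = 0.000588), and the katanin subunit gene Katna1 rose by 0.33 (adjusted p = 0.00284). Stmn2 fell by 0.63 (adjusted p = 0.00303), but not with library totals alone (-0.24, adjusted p = 0.169). Kif2a rose by 0.19 (adjusted p = 0.0298), a call lost with DESeq2 and without transgenic replicate 2 or wild-type replicate 2 or 3 (0.15 to 0.20).

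Of the nucleation and anchoring genes all 17 were tested, 3 rose and 5 fell, with a median of 0.02 (12 and 1 with library totals alone). Syne1, which encodes the nuclear-envelope anchor nesprin-1, fell from 130 ± 13.5 to 84.9 ± 2.76 CPM (-0.62, adjusted p = 4.46e-05). Mzt1, a gamma-tubulin complex component, fell by 0.44 (adjusted p = 0.000149), but not with library totals alone (-0.04). Pcm1 (0.38, adjusted p = 0.000323) and Tubgcp3 (0.41, adjusted p = 0.000493), a centriolar satellite and a gamma-tubulin complex gene, rose.

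Of the kinesin and dynein motor genes 32 of 33 were tested, 14 rose and 8 fell, with a median of 0.12 (24 and 3 with library totals alone). The cargo kinesins Kif1c, from 1520 ± 47.8 to 830 ± 19.7 CPM (-0.87, SE 0.0602, adjusted p = 8.62e-07), and Kif1b, from 810 ± 28.4 to 491 ± 12.3 CPM (-0.72, SE 0.0597, adjusted p = 2.99e-06), fell. The kinesin light chain genes Klc2, from 107 ± 1.88 to 160 ± 2.81 CPM (0.58, SE 0.05, adjusted p = 4.1e-06), and Klc4, from 18.1 ± 1.89 to 34.3 ± 0.563 CPM (0.92, SE 0.0804, adjusted p = 4.57e-06), rose. Klc2 shares 439 exonic bases with AC124502.1.

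**Figure D5:**
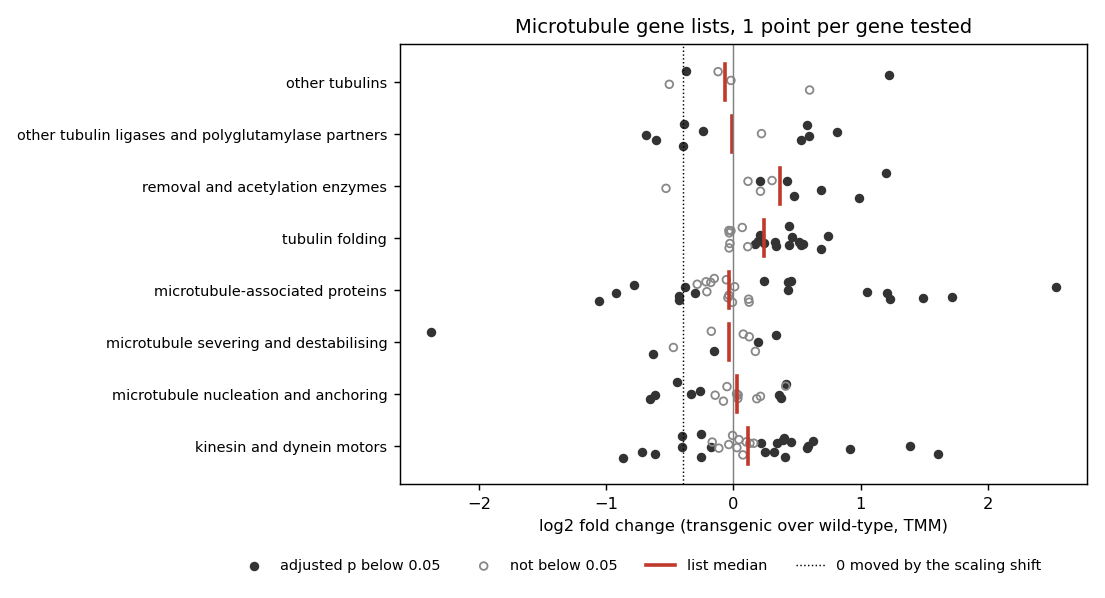
Log2 fold change with TMM scaling of each tested gene in the 8 lists, filled where the adjusted p was below 0.05, with a red bar at each list median. The folding genes and the removal and acetylation enzymes have filled points only above 0; the dotted line marks where 0 would lie with library totals alone, 0.396 lower.

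Markers of the other cell types that the tissue could hold are given for both genotypes, transgenic first, and their part in the values above was not tested. Endothelial markers were lower in 5 of 5 (summed 259 to 276 against 323 to 345 CPM) and smooth muscle markers in 4 of 4 (74.6 to 92.4 against 119 to 168 CPM), of which 0 and 2 were lower with library totals alone. Of the fibroblast markers 1 of 5 was lower (883 to 1040 against 1030 to 1230 CPM), and of the adipocyte markers 1 of 4 (129 to 155 against 175 to 269 CPM); with library totals alone 2 fibroblast markers were higher and 0 lower, and 0 adipocyte markers passed. Of the macrophage markers 1 of 5 was higher (47 to 58.9 against 37.5 to 60.2 CPM), and none of the 5 Schwann cell markers passed (43.4 to 193 against 68.2 to 147 CPM). Of the satellite cell markers 2 were higher and 1 lower of 4 (30.5 to 35.6 against 31.7 to 35.4 CPM), and of the regenerating fibre markers 2 were higher and 1 lower of 5. With library totals alone 4 satellite cell markers were higher and 0 lower, and 3 regenerating fibre markers were higher and 1 lower. Of the proliferation markers 2 of 5 were tested and 0 passed with TMM scaling, 1 as higher with library totals alone (1.71 to 3.96 against 1.29 to 2.04 CPM). No marker was at 0 in all libraries.

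The authors' deposited table of differences, whose smallest absolute log2 fold change is 0.585, holds 4 of the 10 members. There Ttll7 is given as -2.50, Ttll1 as 1.07, Tuba8 as -1.14 and Tubb4b as -0.77, against -2.52, 1.12, -1.13 and -0.84 in the edgeR fit here.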

How the data were processed

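Frozen, powdered gastrocnemius was extracted with Trizol, per the labels' protocols. Reads were aligned with STAR 2.5.0a to GRCm38.p6 and counted with featureCounts 2.0.0, per the submitters' processing notes. The authors deposited raw fragment counts per gene, made without strand, with a fragment over several genes counted for each, per the file headers, so overlapping genes share counts. The authors' deposited table of log2 fold changes with raw and adjusted p-values came from DESeq2, whose version is not given in the sources used here.

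Columns were matched to samples by name, and 51633 of 51911 gene IDs matched GENCODE M21. Counts were kept with filterByExpr, scaled by TMM and tested over all 16593 genes with edgeR 4.0.16 (R 4.3.3; robust quasi-likelihood fit, genotype as sole term, Benjamini-Hochberg, threshold 0.05). The SE is the absolute log2 fold change over the root of F. The biological coefficient of variation was 10.7%. Levels between genes are CPM per kilobase of merged exons. Floors of 3 counts cover counting error only. Likeness to Ttll7 used log2 CPM with a prior count of 2. No library was a duplicate: within a genotype, the chi-square of counts over its degrees of freedom was 10.4 to 25.8.

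The members, the 8 lists and the tests were chosen with earlier results of these data known. Named were all members, up to 4 genes per list past the threshold by smallest p, the 5 genes nearest to Ttll7, Ppargc1a and all marker lists; Ttl, Tubb3, Tpgs2, Lrrc49 and genes named for overlap were named after their values were seen. Alternatives were DESeq2 1.42.0, library totals alone, upper-quartile factors, 2 other filters, limma-voom (limma 3.58.1), a replicate block, each library left out, Tubb2a and Tubb2b summed, and lengths of the longest transcript.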

Additional observations from a re-analysis of the deposited data

How the results depend on the processing

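With library totals alone, 5 members lay past the threshold in place of 8, Tuba4a turned to 0.069 and Tuba1a to 0.02, and the calls of Map4, Tubb6, Ttll4, Stmn2 and Mzt1 were lost; both reversals lie within the 0.396 shift that this scaling gives the median of all genes. Counts over all genes (8419) and the 8 lists (83), direction aside, stayed within 1.5 times under every alternative run, for example 7563 and 76 with DESeq2. The split by direction was not stable. With library totals alone 8676 genes were higher and 1448 lower, against 4230 and 4189 with TMM. In the lists the numbers were 97 higher and 8 lower, against 54 and 29. Leaving out each library gave 7449 to 7888 genes, 71 to 80 list genes and 7 to 8 members. Correlations of deviations were 0.101, -0.0884 and -0.21 between same-numbered libraries of the 2 genotypes, and -0.191 to 0.246 between differently numbered ones. With 3 libraries per genotype these values cannot decide whether the replicate numbers mark a pairing, and the labels do not say. With a replicate block 8331 genes, 82 list genes and 8 members passed. Lengths from the longest transcript moved the mean share of Tuba4a to 66.3% in wild-type and 75.9% in transgenic muscle, and kept the order of the genotypes for Tuba4a and Tuba8. Depth limited Tubb2b, with 22 to 39 counts in a library.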

Other observations

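In 4 genes of the microtubule lists, chosen after their values were seen as the widest gaps, the authors' deposited table differs from the fit to the deposited counts. Klc3, a kinesin light chain gene, is given in the authors' deposited table as a log2 fold change of 2.33, against 0.62 with edgeR and 0.63 with DESeq2 here. Map6d1, a microtubule-stabilising protein gene, is given there as 0.92, against 1.72 and 1.84, and Katnal2 as -1.77, against -2.38 and -2.40. Tbce, a tubulin folding cofactor gene, is given as 0.83, against 0.33 and 0.34. The direction was the same in all 4, and the gap was toward a larger value in the authors' deposited table for Klc3 and Tbce and a smaller one for Map6d1 and Katnal2. Klc3, Tbce and Map6d1 share 744, 325 and 87 exonic bases with another gene, and Katnal2 shares none. Counts were low for Map6d1 (1, 8 and 1 in wild-type, 11, 13 and 16 in transgenic libraries). They were also low for Katnal2 (20, 33 and 40 in wild-type, 9, 5 and 8 in transgenic libraries), so both fold changes are imprecise.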
